A study of Homo sapiens with 8 samples.

Results

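The genes described here are MYC, the 9p genes CDKN2A, CDKN2B and MTAP, the p53 readouts CDKN1A and MDM2, and NRAS, chosen as genes of known lesions in HL-60 or THP-1 cells or as transcripts that follow p53. They were taken as every array probe set for which the annotation gives only 1 of these 7 symbols. That gave 16 probe sets of 6 genes out of 22215 tested, namely 1 for MYC, 3 for CDKN2A, 1 for CDKN2B, 5 for MTAP, 1 for CDKN1A and 5 for MDM2. NRAS was not analysed here, since the annotation used pairs no probe set with it. RNA of each sample was hybridised to 1 Affymetrix human array with a single dye, which gives 8 arrays in 4 groups of 2 biological replicates by their titles: HL-60 cells with DMSO, HL-60 cells with diclofenac, THP-1 cells with DMSO and THP-1 cells with diclofenac. Diclofenac, a painkiller and cyclooxygenase inhibitor, was given at 100 µM for 48 h, and the controls received its solvent DMSO for the same time. All cells grew in RPMI-1640 medium with fetal bovine serum. HL-60 is a human promyelocytic leukaemia line and THP-1 a human monocytic leukaemia line, so each cell type stands here as 1 line grown from 1 patient's leukaemia, and the comparison of the lines holds 1 line on each side. Nothing in the descriptions says whether replicates came from separate cultures, so p-values measure the spread between these arrays, which may be technical.

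MYC is a transcription factor that pairs with MAX at E-boxes and drives ribosome production, nucleotide synthesis and growth, and extra copies of it are a textbook feature of HL-60. CDKN2A encodes 2 unrelated tumour suppressors from alternative first exons. INK4A blocks CDK4 and CDK6 and keeps RB1 active, and ARF restrains MDM2, the ubiquitin ligase that destroys p53. CDKN2B, a neighbouring CDK inhibitor, and MTAP, the enzyme that recycles the by-product of polyamine synthesis into methionine, lie beside CDKN2A and are often deleted with it in leukaemia. CDKN1A, which encodes the CDK inhibitor p21, and MDM2 are the classic transcripts that p53 switches on, and HL-60 cells are known to lack p53. NRAS is a membrane GTPase upstream of the MAPK cascade and is known to be mutated in both lines.

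The promoters of the members whose signal differed between the lines are shown for reference, and do not tell which transcript a probe set measures. They are RefSeq sequences on GRCh38.p14, from 250 bases before to 50 bases after a transcript start, written 5′ to 3′ on the gene's strand. Such windows matched 6 of the 7 members. Capitals mark GC boxes (GGGCGG on either strand) and the TATA box TATAAA. The upstream CDKN2A start, that of ARF, at chr9:21995275-21995574 on the minus strand:
CDKN2A upstream start: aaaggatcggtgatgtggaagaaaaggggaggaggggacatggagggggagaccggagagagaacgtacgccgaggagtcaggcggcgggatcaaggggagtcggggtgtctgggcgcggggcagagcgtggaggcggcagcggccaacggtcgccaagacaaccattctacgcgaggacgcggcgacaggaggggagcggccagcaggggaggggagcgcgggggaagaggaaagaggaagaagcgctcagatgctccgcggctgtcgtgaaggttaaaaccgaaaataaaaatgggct
The downstream CDKN2A start, that of INK4A, at chr9:21974808-21975107 on the minus strand:
CDKN2A downstream start: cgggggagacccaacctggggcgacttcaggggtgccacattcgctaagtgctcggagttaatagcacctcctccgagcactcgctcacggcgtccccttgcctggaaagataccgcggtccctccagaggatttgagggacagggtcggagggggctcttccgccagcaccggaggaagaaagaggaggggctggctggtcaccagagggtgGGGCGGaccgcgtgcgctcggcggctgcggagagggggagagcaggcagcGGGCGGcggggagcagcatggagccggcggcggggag
The MTAP start, at chr9:21802386-21802685 on the plus strand, on the other strand from CDKN2A:
MTAP start: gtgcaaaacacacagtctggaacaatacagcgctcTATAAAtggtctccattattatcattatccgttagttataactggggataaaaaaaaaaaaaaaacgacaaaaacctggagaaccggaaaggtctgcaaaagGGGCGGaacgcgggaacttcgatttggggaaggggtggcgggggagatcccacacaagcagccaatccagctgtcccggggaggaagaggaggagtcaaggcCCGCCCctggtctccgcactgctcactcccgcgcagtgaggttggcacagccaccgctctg
The CDKN1A start, at chr6:36678464-36678763 on the plus strand:
CDKN1A start: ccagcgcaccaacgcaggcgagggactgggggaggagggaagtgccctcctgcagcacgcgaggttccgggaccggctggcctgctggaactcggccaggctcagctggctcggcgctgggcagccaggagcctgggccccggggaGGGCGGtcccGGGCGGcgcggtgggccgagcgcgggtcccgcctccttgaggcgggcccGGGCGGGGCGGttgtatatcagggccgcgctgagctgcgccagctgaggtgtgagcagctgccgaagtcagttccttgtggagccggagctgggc

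The windows differ in their letters. The INK4A window held 2 GC boxes and 69% G or C, and the ARF window held none and 63.3% G or C. The MTAP window held 2 GC boxes and 1 TATAAA at 53% G or C. The CDKN1A window held 4 GC boxes, of which a pair overlaps, at 74.3% G or C. Among 35116 promoter windows of this length, 45% held a GC box and 11.5% the TATA box. The E-box CACGTG, to which MYC and MAX bind and which 7.26% of windows held, was in none of these 4, nor was the p53 decamer consensus, which 6.63% held. These are matches of letters and say nothing of binding.

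Intensities are given as deposited, on a linear scale on which every array has nearly the same trimmed mean (500.1 to 500.2). Log2 differences are of quantile-normalised log2(intensity + 50), with the moderated standard error of limma (SE, n = 2 arrays per group) and p-values adjusted by Benjamini-Hochberg over 22215 probe sets, called under 0.05. The offset makes the changes of dim probe sets look smaller than they are. A value counted as above background when it exceeded the level that 95% of 27 control probe sets for bacterial transcripts stayed under on its array. That level was 33.2 to 60.2 on 7 arrays and 238.6 on THP-1 DMSO replicate 2. On that array 50.3% of probe sets were above background, against 66.4% to 72.1% on the others, and its log2 values correlated with replicate 1 at 0.898, against 0.977 to 0.984 for the other replicate pairs. The marker genes went partly against the labels. Of 7 measured promyelocyte granule genes, which mark HL-60, 4 were higher and 1 lower in THP-1 with DMSO, with AZU1 and PRTN3 at 2.47 and 1.66 log2 units. MPO, of that list, read 41.7 and 40.6 in HL-60 with DMSO, both under background, and 201.4 and 235.6 in THP-1 with DMSO. The 235.6 was under the background of THP-1 DMSO replicate 2. Its difference was 1.29 ± 0.37 (limma adjusted p = 0.0502), not called, and 1.64 without that array. Of 6 measured monocyte genes and genes of KMT2A-rearranged leukaemia, which mark THP-1, CSF1R was higher there with DMSO (1.24, and 1.17 with an adjusted p of 0.068 by limma without THP-1 DMSO replicate 2) and MEIS1 lower (-0.99, or -0.61). CD14, a monocyte receptor of that list, was higher in THP-1 with diclofenac, by at least 3.69-fold (adjusted p = 0.0044), where it read 332.9 and 310.5 against 3.2 and 28.9 in HL-60. With DMSO it was not called (0.57). The lines are named as labelled throughout. No marker of T cells, B cells, erythroid cells, fibroblasts or epithelial cells (17 measured) was called between the lines or with the drug. They were not all dark. HBB and COL1A1 were above background on 8 arrays, CD2, CD3E and CD79B on 7, and COL1A2 and MS4A1 on 6. CD79A was above it on 4 arrays, CD3D on 3, CDH1 on 2 and KRT18 on 1. CD3G, ALAS2, COL3A1, DCN, EPCAM and KRT19 were above background on no array.

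**Figure D1:**
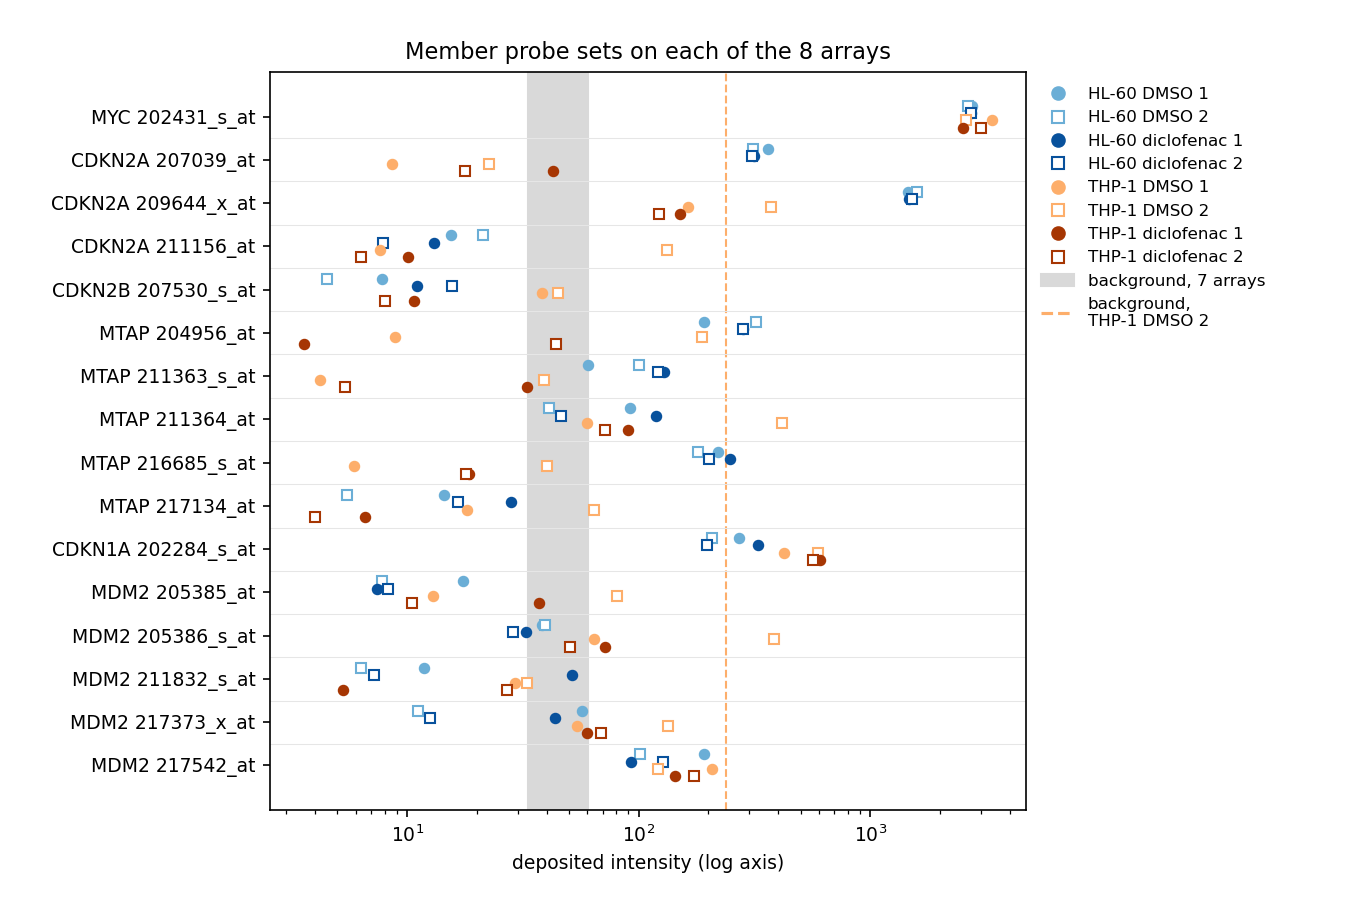
Deposited intensity (log axis) of the 16 member probe sets on each of the 8 arrays, coloured by group, with filled circles for replicate 1 and open squares for replicate 2. The grey band spans the background of 7 arrays (33.2 to 60.2) and the dashed line is that of THP-1 DMSO replicate 2 (238.6). MYC lies between 2509.3 and 3342.6 on every array, while 2 CDKN2A and 3 MTAP probe sets lie farther right in HL-60 than in THP-1.

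The signals of CDKN2A and MTAP were higher in HL-60 than in THP-1, with and without the drug, though not by every probe set. With DMSO, 216685_s_at was the only MTAP probe set called. Most CDKN2A and MTAP probe sets that were above background in HL-60 lay near or under it in THP-1. HL-60 arrays gave CDKN2A probe set 207039_at an intensity of 362.9 and 312.7 with DMSO and of 314.6 and 308.8 after diclofenac. THP-1 arrays gave it 8.6 and 22.5 with DMSO and 42.5 and 17.8 after diclofenac. All 4 HL-60 arrays were above background and 1 THP-1 array was, diclofenac replicate 1, at 42.5 against a background of 42.3. With DMSO it was at least 2.98-fold lower in THP-1 (log2 difference -2.71 ± 0.35, limma adjusted p = 0.0011). With diclofenac the log2 difference was -2.15 ± 0.35 (0.0042), given without a fold since the THP-1 signal lay at or under background, and it was no longer called if THP-1 diclofenac replicate 2 was left out (-1.95, 0.059).

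A brighter CDKN2A probe set, 209644_x_at, read 1461.1 and 1595.9 with DMSO and 1473.1 and 1517.8 with diclofenac in HL-60. In THP-1 it read 162.5 and 374.1 with DMSO and 151.3 and 122.4 with diclofenac. All 8 arrays were above background, and no THP-1 array reached the HL-60 range. The signal was 5.66-fold lower in THP-1 with DMSO (-2.50 ± 0.19, limma adjusted p = 6.6e-05) and 7.6-fold lower with diclofenac (-2.93 ± 0.19, 3.3e-05), and both calls stood under every alternative tried. The suffix of this probe set marks probes that may bind several transcripts, so the THP-1 signal need not be that of CDKN2A. The remaining probe set, 211156_at, was above background on none of the 8 arrays. The probe sets are not assigned to INK4A or ARF by the files.

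MTAP was measured by 5 probe sets, and 3 of them followed CDKN2A. Probe set 216685_s_at read 220 and 180.2 with DMSO and 248 and 201.1 with diclofenac in HL-60, and 5.9 and 40.1 with DMSO and 18.5 and 17.9 with diclofenac in THP-1. It was above background on the 4 HL-60 arrays alone, and at least 1.93-fold lower in THP-1 with DMSO (-2.05 ± 0.32, limma adjusted p = 0.0032) and at least 2.81-fold lower with diclofenac (-1.98 ± 0.32, 0.0044). The second of these calls was lost on leaving out either THP-1 diclofenac array (0.059 and 0.055).

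The MTAP probe set of highest mean signal, 204956_at, read 191.5 and 321.9 with DMSO and 282.8 and 281.6 with diclofenac in HL-60. In THP-1 it read 8.9 and 187.5 with DMSO and 3.6 and 43.9 with diclofenac. The 187.5 came from THP-1 DMSO replicate 2 and was under that array's background. With DMSO the difference was -1.60 ± 0.52 (limma adjusted p = 0.077), not called, and -2.22 (0.018) without that array. With diclofenac it was at least 3.36-fold lower in THP-1 (-2.18 ± 0.52, 0.026), and the call was lost on leaving out any 1 of the 4 diclofenac arrays (0.067 to 0.21).

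Probe set 211363_s_at was dimmer, at 60.5 and 100.8 with DMSO and 128.2 and 120.6 with diclofenac in HL-60, and at 4.2 and 39 with DMSO and 32.9 and 5.4 with diclofenac in THP-1. It was at least 1.88-fold lower in THP-1 with diclofenac (-1.43 ± 0.34, limma adjusted p = 0.026). That call was lost on the deposited scale (0.084) and on leaving out any 1 of the 4 diclofenac arrays (0.077 to 0.25), and with DMSO the difference was -1.14 ± 0.34 (0.059). The other MTAP probe sets did not follow. Probe set 211364_at read 41.1 to 118.4 in HL-60 and 59.6 to 90.2 in THP-1 apart from 417 on THP-1 DMSO replicate 2, and its difference with DMSO (0.95 ± 0.55) was 0.15 without that array. Probe set 217134_at was above background on no array.

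CDKN2B was at background. Its probe set read 4.5 to 15.6 on the HL-60 arrays and the THP-1 diclofenac arrays read 10.7 and 8, with 38.3 and 44.9 on the THP-1 DMSO arrays. Only THP-1 DMSO replicate 1 was above its background. No fold is given, and the log2 differences between the lines were 0.42 ± 0.22 with DMSO and -0.13 ± 0.22 with diclofenac (limma adjusted p = 0.26 and 0.86). Since the samples are bulk RNA, fewer cells carrying a transcript and less of it per cell cannot be told apart in any of these values.

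Counted over all 16 member probe sets, 3 were lower and 1 higher in THP-1 with DMSO, against 7.72% lower and 7.59% higher among all probe sets tested. With diclofenac 5 were lower and 1 higher, against 6.22% and 6.79%. The arrays of the lines did not overlap, on the normalised scale, for 5 member probe sets lower and 7 higher in THP-1 with DMSO, against 24.7% and 24.8% of all, and for 7 lower and 5 higher with diclofenac, against 30.3% and 28.6%. Under median centring of the arrays in place of quantile normalisation, all probe sets gave 428 higher and 719 lower calls with DMSO in place of 1687 and 1715, and 507 and 521 with diclofenac in place of 1508 and 1382. The members called were then 3 with DMSO, CDKN2A by both probe sets above background and MTAP 216685_s_at, and the same 5 lower ones with diclofenac. The number of members called with diclofenac was 3 without HL-60 diclofenac replicate 2, 2 without THP-1 diclofenac replicate 1 and 1 without THP-1 diclofenac replicate 2. With DMSO it was 7 on leaving out THP-1 DMSO replicate 1, a fit in which replicate 2 is the group's lone array and is assumed to vary like the other groups.

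**Figure D2:**
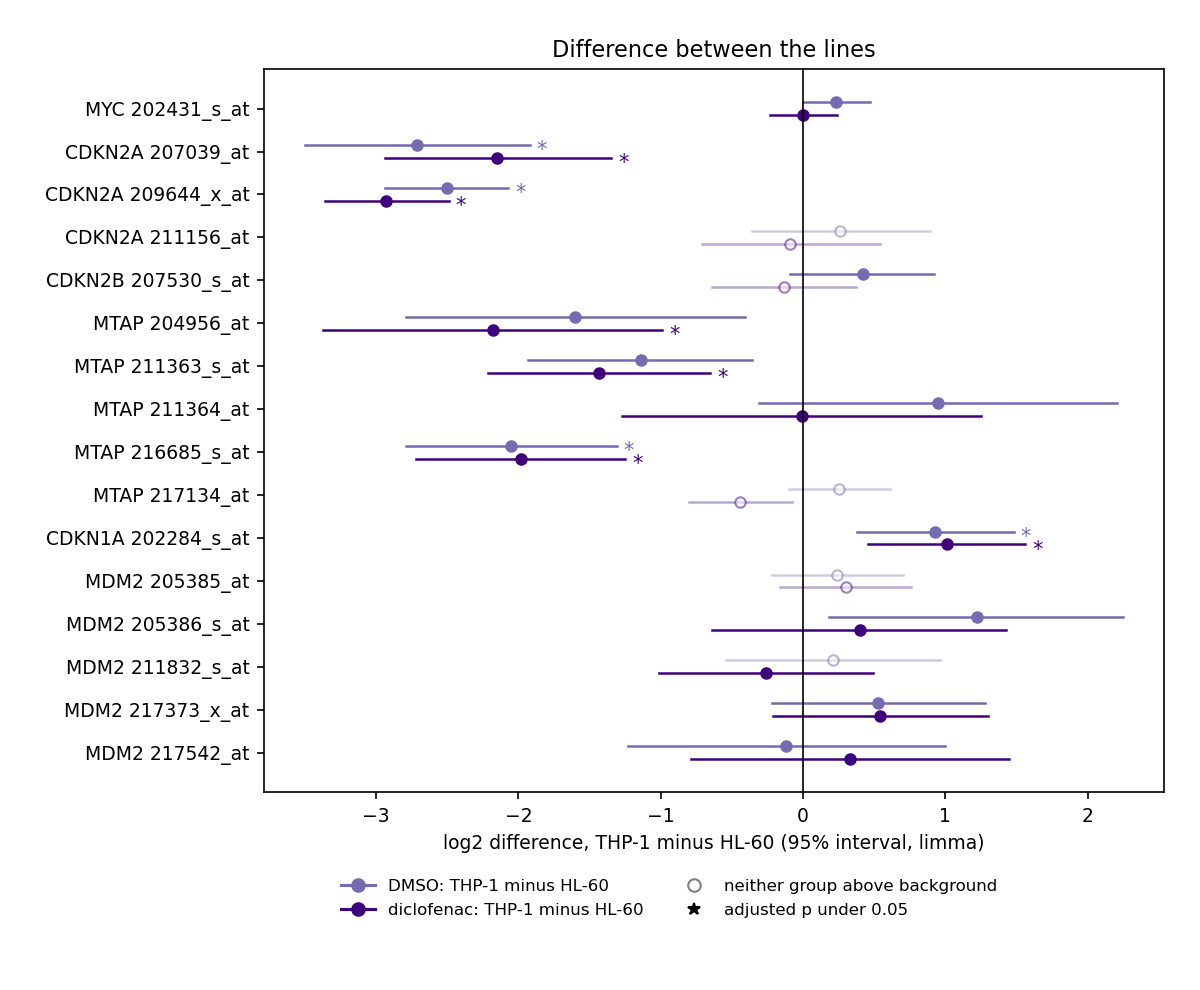
Log2 difference between the lines (THP-1 minus HL-60, x axis) for each member probe set with DMSO (light) and diclofenac (dark), with the 95% interval of limma. Stars mark an adjusted p under 0.05 and open circles probe sets above background in neither group. The 2 CDKN2A probe sets above background lie between -2.93 and -2.15, CDKN1A lies at 0.93 and 1.01, and MYC at 0.23 and 0.

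The neighbours on chromosome arm 9p were taken from a list of 30 genes around CDKN2A, of which 26 were measured. With DMSO 1 was called higher and 1 lower in THP-1, and with diclofenac 0 and 1, against 9.32% higher and 9.3% lower (DMSO) and 8.38% and 7.59% (diclofenac) among the representative probe sets of 11963 genes. The gene called lower both times was KLHL9, an adaptor of a CUL3 ubiquitin ligase that lies among the interferon-alpha genes near MTAP. It read 757.3 and 622.9 with DMSO and 566.7 and 404.2 with diclofenac in HL-60, and 56.7 and 91.2 with DMSO and 95.2 and 101.7 with diclofenac in THP-1. The difference was -2.81 ± 0.30 with DMSO (limma adjusted p = 0.00037) and -1.75 ± 0.30 with diclofenac (0.0053). Leaving out HL-60 diclofenac replicate 1 (0.085) or THP-1 diclofenac replicate 1 (0.058) ended the second call. Another KLHL9 probe set gave -0.93 (0.23) and -1.74 (0.037).

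Besides KLHL9 and the members, no gene of the region was called lower. In RefSeq order on GRCh38.p14, with 29 genes measured and 17 of them above background on at least 4 arrays, FOCAD on the telomere side had 0.10 ± 0.22 with DMSO and -0.05 ± 0.22 with diclofenac. MLLT3, the fusion partner of KMT2A in THP-1, had 1.15 ± 0.36 and 0.62 ± 0.36 and was not called (limma adjusted p = 0.067 and 0.39). On the centromere side CAAP1, an apoptosis regulator, was higher with DMSO (0.73 ± 0.16, 0.018) and not with diclofenac (0.18 ± 0.16). The DMSO call was lost with array weights (0.11), with median centring (0.51) and without HL-60 DMSO replicate 1 (0.13) or either THP-1 diclofenac array (0.051 each). Between them, the interferon genes gave no call. IFNA17 had the smallest adjusted p of them, with 1.87 ± 0.64 with DMSO (0.094), and 1.01 (0.3) without THP-1 DMSO replicate 2. Leaving out that array moved IFNA4 from 1.42 to -0.01, IFNA14 from 1.2 to 0.03 and IFNA16 from 1.09 to 0.02. The genes IFNA1, IFNA2, IFNA8, IFNA21 and IFNB1 were above background on no array. IFT74, a transport protein of cilia beyond CAAP1, had -0.91 ± 0.44 and -0.80 ± 0.44 (0.22 and 0.35), the first -0.46 without that array. PLAA, next to CAAP1, had -0.80 ± 0.25 with DMSO (limma adjusted p = 0.072, and -0.45 without that array) and -0.10 ± 0.25 with diclofenac. DENND4C, on the telomere side, had -0.83 ± 0.41 (0.235, and -0.25 without that array) and -0.28 ± 0.41. TEK, above background on 2 arrays, had -0.64 ± 0.50 and -0.80 ± 0.50. PLIN2, a lipid droplet protein on the same list, was the list's only call with the drug, by 1.36 ± 0.08 for HL-60 (0.003) and 1.54 ± 0.08 for THP-1 (0.001), against 0.00836% and 0.159% of representatives called higher. Neither was called under median centring, nor if the fit took no intensity trend, and the HL-60 call ended on leaving out any 1 of that line's 4 arrays (0.063 to 0.12) and the THP-1 call without THP-1 diclofenac replicate 2 (0.053).

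**Figure D3:**
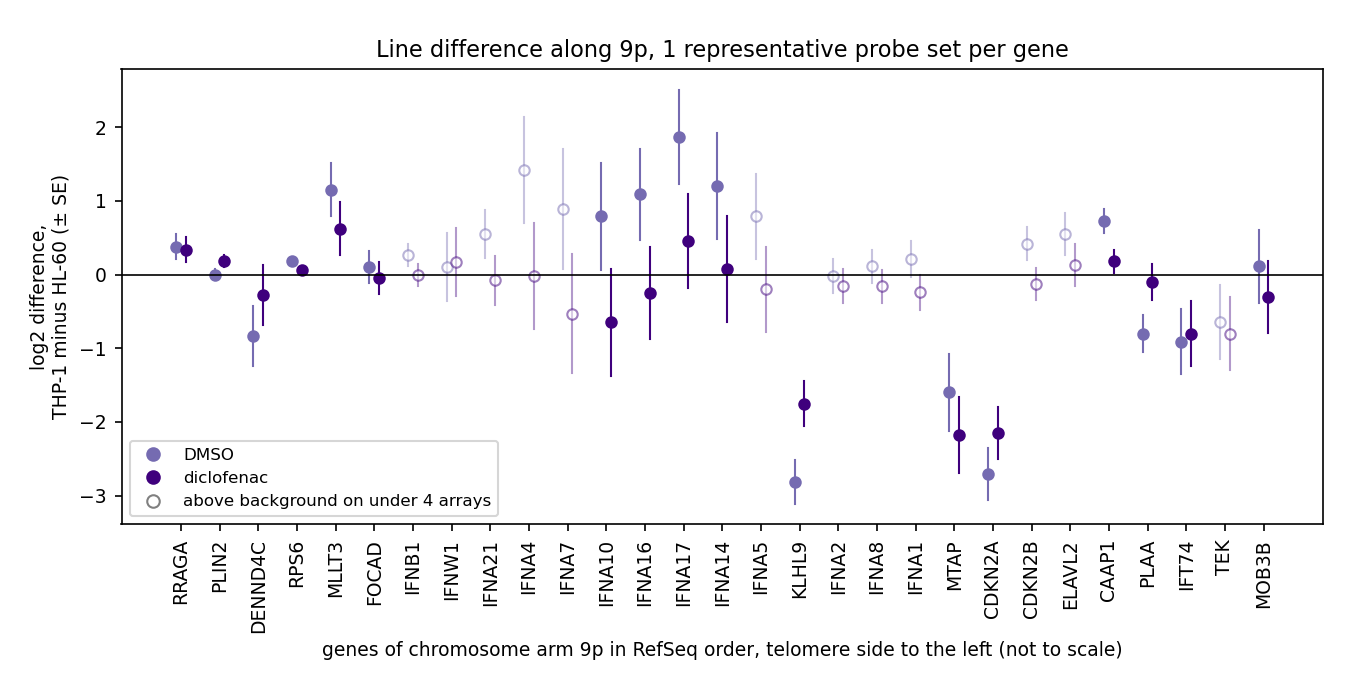
Log2 difference between the lines (THP-1 minus HL-60, y axis, ± SE) for the representative probe set of 29 genes of chromosome arm 9p in RefSeq order, not to scale, with DMSO (light) and diclofenac (dark). Open circles are genes above background on under 4 arrays. KLHL9, MTAP and CDKN2A lie between -2.81 and -1.60, and FOCAD and CAAP1 on either side between -0.05 and 0.73. Farther out, DENND4C, PLAA, IFT74 and TEK lie between -0.91 and -0.10.

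The p53 readout CDKN1A was brighter in THP-1 than in HL-60. It read 272 and 208 with DMSO and 329 and 196.4 with diclofenac in HL-60, and 423.3 and 593.1 with DMSO and 608.5 and 568.6 with diclofenac in THP-1. Every THP-1 array was above every HL-60 array, and all 8 were above background. The difference was 1.91-fold with DMSO (0.93 ± 0.24, limma adjusted p = 0.033) and 2.01-fold with diclofenac (1.01 ± 0.24, 0.026). With DMSO it was no longer called without THP-1 DMSO replicate 2 (0.85, 0.056), without either HL-60 DMSO array (0.11 and 0.17) and either THP-1 diclofenac array (0.086 and 0.085), and under median centring (0.70, 0.27) and array weights (0.18). With diclofenac it was no longer called under median centring (0.12), or on leaving out HL-60 diclofenac replicate 2 (0.75, 0.21), THP-1 diclofenac replicate 1 (0.19) or THP-1 diclofenac replicate 2 (0.16). By group mean the order was THP-1 diclofenac (9.34), THP-1 DMSO (9.10), HL-60 diclofenac (8.33) and HL-60 DMSO (8.16), in log2 units, and neighbours of the same line were not called different.

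MDM2, which p53 induces and which in turn limits p53, gave no call in either line comparison by any of its 5 probe sets. The brightest, 217542_at, read 190.7 and 101.3 with DMSO and 92.8 and 127.1 with diclofenac in HL-60. In THP-1 it read 206.7 and 120.6 with DMSO and 142.8 and 174.1 with diclofenac. The groups overlapped in the comparison with DMSO, and the differences were -0.12 ± 0.49 with DMSO (0.61 without THP-1 DMSO replicate 2) and 0.33 ± 0.49 with diclofenac, with 95% intervals of -1.23 to 1 and -0.79 to 1.45. Probe set 205386_s_at read 28.8 to 39.2 in HL-60, above background on no array there, and 64.4, 383.2, 71.4 and 50.4 in THP-1. The 383.2 came from THP-1 DMSO replicate 2. Its difference with DMSO was 1.22 ± 0.45 (limma adjusted p = 0.12), and 0.53 without that array. Of the other MDM2 probe sets, 205385_at was above background on no array, 211832_s_at on 1 and 217373_x_at on 3.

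Among 28 measured p53 regulators and target genes other than the members, 6 were higher and 1 lower in THP-1 with DMSO, and 4 higher and 0 lower with diclofenac. Among all representatives 9.32% were higher and 9.3% lower with DMSO, and 8.38% and 7.59% with diclofenac. The list's median difference was 0.11 and 0.13, beside 0.03 and 0 over all representatives, and 15 and 16 of the 28 had a positive difference. Without THP-1 DMSO replicate 2 the DMSO median was 0.03, with 8 higher and 1 lower. Genes of the apoptotic branch were among those higher, while FAS and TNFRSF10B of the same list lay lower without a call. These 2 had -1.34 ± 0.46 and -1.22 ± 0.48 with DMSO (limma adjusted p = 0.092 and 0.14). With diclofenac they had -1.21 ± 0.46 and -0.44 ± 0.48. PMAIP1, which encodes the BH3-only protein NOXA, was higher by 0.77 ± 0.15 with DMSO (limma adjusted p = 0.0081) and 0.68 ± 0.15 with diclofenac (0.016). PPM1D, the phosphatase that shuts off the p53 response, was higher by 0.89 ± 0.19 (0.013) and 1.04 ± 0.19 (0.0067). TP53I3, a quinone oxidoreductase, was higher by 1.28 ± 0.31 with DMSO (0.025) and 1.43 ± 0.31 with diclofenac (0.017). PERP, a membrane protein of apoptosis and cell adhesion, was above background on no HL-60 array and at least 2.81-fold higher in THP-1 with diclofenac (0.041). EI24 was higher with DMSO (1.05 ± 0.19, 0.0075), as was GADD45A, a growth arrest gene (1.71 ± 0.41, 0.024, and 1.11 without THP-1 DMSO replicate 2). CCNG1, cyclin G1, was the 1 gene lower with DMSO (-0.44 ± 0.09, 0.01). BAX, which opens mitochondria in apoptosis, had -0.55 ± 0.33 (0.32) with DMSO, and 0.05 without THP-1 DMSO replicate 2. MDM4, the partner of MDM2, had 0.31 ± 0.32 (0.58), and 0.06 without that array. Median centring left 1 of these genes called higher and 0 lower with DMSO.

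MYC was bright and nearly level. Its probe set read 2741.5 and 2640.5 with DMSO and 2713.6 and 2709.7 with diclofenac in HL-60, and 3342.6 and 2597.2 with DMSO and 2509.3 and 2994.8 with diclofenac in THP-1. The THP-1 arrays spanned the HL-60 range on the deposited scale. The difference between the lines was 0.23 ± 0.10 with DMSO (95% interval 0 to 0.47, limma adjusted p = 0.18) and 0.00 ± 0.10 with diclofenac (-0.23 to 0.24, adjusted p = 1). Neither direction was settled. Under median centring the differences were -0.11 ± 0.43 and -0.03 ± 0.43, with HL-60 the higher and an interval far wider, and on the deposited scale 0.13 ± 0.16 and 0.02 ± 0.16. By group mean the order was THP-1 DMSO (11.65), HL-60 DMSO (11.42) and both diclofenac groups (11.39 each), and no neighbours differed after adjustment.

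Of 14 measured MYC partners and antagonists, 2 were higher and 2 lower in THP-1 in each comparison. The shares of all representatives were 9.32% higher and 9.3% lower with DMSO, and 8.38% and 7.59% with diclofenac. MYCL, a MYC paralogue, read 127 and 68.1 with DMSO and 136.1 and 153.3 with diclofenac in HL-60, and 548.8 and 884.2 with DMSO and 748.2 and 694.9 with diclofenac in THP-1. It was higher in THP-1 by 2.44 ± 0.28 with DMSO (limma adjusted p = 0.00057) and 1.85 ± 0.28 with diclofenac (0.0027), while its dimmer probe set had -0.31 and 0.15 and was not called. MYCBP2, a large ubiquitin ligase that binds MYC, was lower by -1.33 ± 0.10 (6.1e-05) and -1.44 ± 0.10 (4.7e-05), and its dimmer probe set was called with DMSO (0.013) and not with diclofenac (0.1). RUVBL1, an ATPase cofactor of MYC, was higher by 0.86 ± 0.16 (0.0068) and 0.61 ± 0.16 (0.036). MAX was lower by -0.46 ± 0.10 (0.018) and -0.38 ± 0.10 (0.043), with 4 other probe sets of it uncalled, and its calls ended under median centring (0.33 and 0.81) and in a fit that took no intensity trend (0.1 and 0.19), and with DMSO also on leaving out either HL-60 DMSO array (0.11 and 0.081). MXI1, a MAX-binding antagonist, had -0.13 ± 0.11 (0.51) and 0.32 ± 0.11 (0.12), and MXD1 was above background on no array.

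Of 26 measured MYC target genes, 5 were higher and 3 lower in THP-1 with DMSO, and 2 higher and 6 lower with diclofenac. The shares of all representatives were 9.32% and 9.3% with DMSO, and 8.38% and 7.59% with diclofenac. The list's median was -0.12 with DMSO (0.04 without THP-1 DMSO replicate 2, when 5 were higher and 1 lower) and 0.04 with diclofenac, beside 0.03 and 0 over all representatives. The growth genes PA2G4 (0.95 ± 0.11, limma adjusted p = 0.00081, with another probe set at 0.21 and not called, 0.32) and NCL, the nucleolar protein nucleolin (0.75 ± 0.11, 0.0021), were higher with DMSO, as were NME1, a nucleoside diphosphate kinase (0.41 ± 0.08, 0.0077), and PRMT5 (0.90 ± 0.15, 0.0038). With diclofenac PRMT5 (0.73 ± 0.15, 0.012) and NME1 (0.30 ± 0.08, 0.033) were higher. CCND2, cyclin D2, was lower with diclofenac (-3.01 ± 0.53, 0.0063) and with DMSO (-1.99 ± 0.53, 0.037). The spermidine synthase SRM (-0.56 ± 0.12, 0.014) and the nucleolar NOLC1 (-0.46 ± 0.08, 0.0047) were lower with diclofenac. The other NOLC1 probe sets had -0.25 and 0.03 and were not called. ODC1, the entry enzyme of polyamine synthesis, had 0.28 ± 0.16 (0.3) and 0.09 ± 0.16 (0.87), the first 0.05 without THP-1 DMSO replicate 2. The call of NCL was lost on the deposited scale (0.062). Those of NME1 with DMSO and NOLC1 with diclofenac were lost there (0.41 and 0.1) and without the intensity trend (0.13 and 0.1). CCND2 read 925.4 and 727.6 in HL-60 and 75.4 and 31.1 in THP-1 with diclofenac. With DMSO it read 573 and 553.3 in HL-60 and 23.2 and 346.4 in THP-1. Its other probe sets had -0.95 and -0.42 with diclofenac and -0.68 and 0.28 with DMSO, and were not called.

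INK4A and p21 act on the RB pathway, whose 31 measured G1 genes gave 6 higher and 4 lower in THP-1 with DMSO and 4 higher and 4 lower with diclofenac. Their medians were 0.07 and -0.01. Among all representatives 9.32% were higher and 9.3% lower with DMSO, and 8.38% and 7.59% with diclofenac. MCM5, a subunit of the replicative helicase, was higher by 1.02 ± 0.09 with DMSO (limma adjusted p = 0.00014) and 1.00 ± 0.09 with diclofenac (0.00017). RRM2, a subunit of ribonucleotide reductase, was lower by -0.84 ± 0.08 (0.00018) and -1.43 ± 0.08 (1.3e-05). PCNA, the sliding clamp of DNA polymerase, was lower with DMSO (-1.06 ± 0.16, 0.0028). The helicase genes MCM2 and MCM6 went opposite ways in both comparisons. MCM2 was higher by 0.53 ± 0.09 with DMSO (0.0041) and 0.35 ± 0.09 with diclofenac (0.033). MCM6 was lower by -0.39 ± 0.07 with DMSO (0.0049) and -0.48 ± 0.07 with diclofenac (0.002). The targets of INK4A were uncalled, with CDK4 at 0.32 ± 0.12 (0.13) and CDK6 at 0.31 ± 0.39 (0.65) with DMSO, as was RB1 (-0.05 ± 0.14, 0.85). The CDK inhibitors CDKN1B (-0.32 ± 0.13, 0.15) and CDKN2D (-0.57 ± 0.45, 0.46, and -0.14 without THP-1 DMSO replicate 2) were uncalled as well.

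Around NRAS, 18 RAS and MAPK genes were measured, with 5 higher and 2 lower in THP-1 in each comparison. The shares of all representatives were 9.32% and 9.3% with DMSO, and 8.38% and 7.59% with diclofenac. This list had medians of 0.03 and 0.20. Without THP-1 DMSO replicate 2 the DMSO median was 0.32, with 4 higher and 2 lower. RRAS2, a RAS-related GTPase, read 38.4 and 66.1 with DMSO in HL-60 and 412 and 696 with DMSO in THP-1, a difference of 2.54 ± 0.40 (limma adjusted p = 0.0031), and had 2.32 ± 0.40 with diclofenac (0.0054). Its other 2 probe sets, above background on 3 arrays each, were called with diclofenac only. RASGRP2, a nucleotide exchange factor of RAP1, was higher by 1.48 ± 0.23 (0.0032) and 1.61 ± 0.23 (0.0022), with 1 of its 3 other probe sets called, with diclofenac. MAP2K1, the kinase MEK1, was lower by -1.37 ± 0.13 (0.00018) and -1.24 ± 0.13 (0.00033), and the RAS effector RASSF2 by -1.53 ± 0.09 (1.6e-05) and -1.62 ± 0.09 (1.4e-05). HRAS had 0.07 ± 0.24 (0.88) and 0.11 ± 0.24 (0.91), the first 0.42 without THP-1 DMSO replicate 2.

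The pathway that MTAP feeds was measured by 11 genes of methionine salvage and of the PRMT5 complex, which the MTAP substrate is known to inhibit. With DMSO 3 were higher and 2 lower in THP-1, and with diclofenac 2 and 3, with medians of 0.10 and -0.06. Among all representatives 9.32% were higher and 9.3% lower with DMSO, and 8.38% and 7.59% with diclofenac. ADI1, a dioxygenase of methionine salvage, was lower by -0.86 ± 0.09 (limma adjusted p = 0.00046) and -1.33 ± 0.09 (5.5e-05), and the spermine synthase SMS by -1.38 ± 0.14 (0.00027) and -1.72 ± 0.14 (9.4e-05). AMD1, which supplies the donor for polyamine synthesis, was higher with DMSO (0.73 ± 0.12, 0.0033) and with diclofenac (0.47 ± 0.12, 0.03). PRMT5 and SRM, which this list shares with the MYC targets, are given above.

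How far these list calls depended on single arrays differed between genes. With DMSO, MYCL, MYCBP2, KLHL9, RRAS2, MAP2K1, RASSF2 and SMS were called under every alternative and every array left out. Median centring ended the calls of RUVBL1, PA2G4, NCL, NME1, PRMT5, PMAIP1, PPM1D, EI24, CCNG1, MCM5, MCM2, RRM2, PCNA, RASGRP2, ADI1 and AMD1 (limma adjusted p from 0.15 to 0.98). The DMSO calls of RUVBL1, EI24 and PPM1D ended without HL-60 DMSO replicate 1 (0.056, 0.074 and 0.097), and those of NME1, PMAIP1 and CCNG1 without HL-60 DMSO replicate 2 (0.058, 0.053 and 0.077). That of GADD45A ended on leaving out any 1 of the HL-60 DMSO or THP-1 diclofenac arrays (0.054 to 0.17). With diclofenac, MYCL, RASSF2 and SMS were called throughout, and MYCBP2, MAP2K1, RASGRP2, RRM2, MCM5 and ADI1 lost the call under median centring alone (0.051 to 0.33). MAX, RUVBL1, PRMT5, PMAIP1, TP53I3, PERP and SRM lost it on leaving out any 1 of the 4 diclofenac arrays (0.059 to 0.31). PPM1D lost it without 3 of these arrays, all but HL-60 replicate 2 (0.065 to 0.078), CCND2 without all but THP-1 replicate 1 (0.051 to 0.069) and RRAS2 without all but HL-60 replicate 1 (0.055 to 0.066). NOLC1 lost it without HL-60 diclofenac replicate 2 (0.056) or THP-1 diclofenac replicate 1 (0.058). When THP-1 DMSO replicate 2 was left out, the diclofenac comparison had 9 higher and 2 lower genes in the p53 list, 5 and 2 in the MYC network, 4 and 6 among MYC targets and 7 and 6 among G1 genes. The DMSO comparison then had 3 and 3 in the MYC network and 2 and 1 in the 9p list.

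Diclofenac called none of the 16 member probe sets in either line by limma after adjustment, where 0.0045% of all probe sets were called in HL-60 and 0.135% in THP-1. At an unadjusted p under 0.05 there was 1 member probe set in HL-60, an MTAP probe set that was not above background (217134_at, 0.38 ± 0.16), against 4.51% of all probe sets. In THP-1 there were 2, against 10.6%. The first was MYC, at -0.26 ± 0.10 (95% interval -0.49 to -0.02, limma adjusted p = 0.44). This MYC value was 0.25 ± 0.43, the other way, under median centring and -0.10 on the deposited scale, and -0.14 or -0.37 without THP-1 diclofenac replicate 1 or 2. In HL-60 MYC had -0.03 ± 0.10 (-0.26 to 0.21), and 0.17 ± 0.43 under median centring. The other was CDKN2A probe set 209644_x_at, at -0.47 ± 0.19 in THP-1 (limma adjusted p = 0.44, and -0.27 without THP-1 DMSO replicate 2), with -0.04 ± 0.19 in HL-60.

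CDKN1A had a difference with the drug of 0.16 ± 0.24 in HL-60 (95% interval -0.39 to 0.71, and -0.10 without HL-60 diclofenac replicate 1) and 0.24 ± 0.24 in THP-1 (-0.31 to 0.79). The brightest MDM2 probe set had -0.11 ± 0.49 in HL-60 and 0.33 ± 0.49 in THP-1, the latter -0.39 without THP-1 DMSO replicate 2. In HL-60, where MTAP was measured, probe sets 204956_at, 216685_s_at and 211363_s_at had 0.24 ± 0.52, 0.22 ± 0.32 and 0.58 ± 0.34 with the drug, and CDKN2A 207039_at had -0.04 ± 0.35. The effect of the drug was not shown to differ between the lines for any member probe set, where 0.0045% of all were called. At an unadjusted p under 0.05 there was 1 member probe set, against 6.95% of all. MYC had a difference of the 2 effects of -0.23 ± 0.15 (limma adjusted p = 0.77, and 0.08 under median centring), CDKN1A of 0.08 ± 0.34 (0.96), and MTAP 217134_at, under background on every array, the smallest adjusted p of the 16 (-0.69 ± 0.22, 0.56). On leaving out THP-1 DMSO replicate 1, with replicate 2 as the lone array of its group, 4 member probe sets were called in THP-1 and 2 in the difference between the lines, beside 3406 higher and 3492 lower and 2142 higher and 1894 lower among all probe sets.

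**Figure D4:**
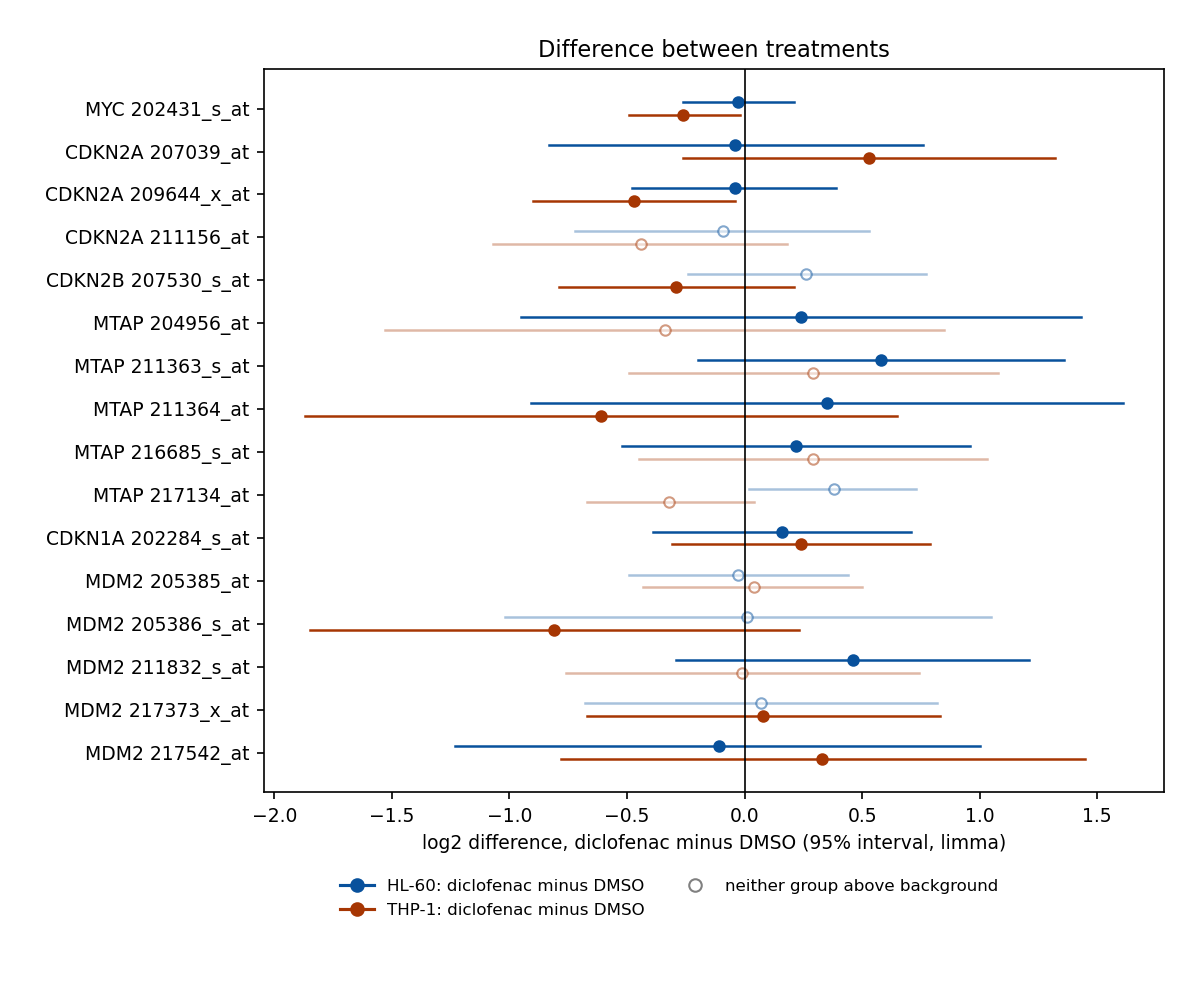
Log2 difference between diclofenac and DMSO (x axis) for each member probe set in HL-60 (blue) and THP-1 (brown), with the 95% interval of limma. Open circles are probe sets above background in neither group. No adjusted p was under 0.05, MYC lies at -0.03 and -0.26, and CDKN1A at 0.16 and 0.24.

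None of the MYC network genes, MYC targets, p53 list genes, RB and G1 genes, RAS and MAPK genes or methionine salvage genes was called with the drug in either line. The p53 list had a median difference of -0.09 for HL-60 and 0.07 for THP-1 (-0.03 if THP-1 DMSO replicate 2 is left out), and the MYC targets of 0.01 and -0.06. Within the p53 list, PMAIP1 had 0.47 and 0.38, and GADD45A 0.33 and 0.03. The comparisons between lines and those between treatments share their arrays, so their values are set side by side and not correlated.

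The genes most like each member over the 8 arrays were taken by Pearson correlation among 5415 or 5416 representatives that were above background on at least 4 arrays and ranged over at least 1 log2 unit. CDKN2A 207039_at lay closest to ASAH1 (0.998), DMXL2 (0.996) and BCL2A1 (0.995), and MTAP 204956_at to TRAF5 (0.991), TOR3A (0.976) and FOXF1 (0.975). CDKN1A lay closest to RRAGD (0.975), PAPSS2 (0.975) and CERS2 (0.974), and MDM2 217542_at to SLC29A2 (0.973), SPI1 (0.971) and PDSS2 (0.965). MYC, which varied little, lay closest to MFAP5 (0.926), STIM1 (0.876) and ACP3 (0.865). All points share the 4 arrays of each line, so any gene that differs between the lines gives a high value, and these are descriptions without a test.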

How the data were processed

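The deposited table holds 1 linear intensity per probe set and array, scaled to nearly equal trimmed means, as its values show. The software and genome build behind it are not given in the sources used here. Of 22277 probe sets, 62 controls were left out. GEO's platform annotation gives 19064 probe sets 1 symbol and 1043 several, and 2108 are not listed. Values were quantile-normalised as log2(intensity + 50) and fitted as 4 group means over all 8 arrays (limma 3.58.1, R 4.3.3, intensity trend, 4 residual and 4.41 prior degrees of freedom). Probe sets with an adjusted p under 0.05 (Benjamini-Hochberg) were called. A gene with several probe sets is represented by that of highest mean log2, and _x_at probe sets only where it has no other. Where no array of a group was above background, the fold is a lower bound against the lowest signal above background. The members, the lists of 220 genes and the naming rule, up to 4 called genes per list and comparison by smallest p plus fixed names, were chosen with earlier results of these data known. Precision is limited by the small number of arrays. Alternatives were another offset (16), the deposited scale, median centring, no trend, the dimmest 40% left out, array weights, a replicate block and each array left out.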

Additional observations from a re-analysis of the deposited data

How the results depend on the processing

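Every alternative other than leaving out an array kept the number of member probe sets called within 1.5 times of the value reported, and no member's call changed sign under those or any array left out. Leaving out each array in turn gave 0 to 0 member probe sets called with diclofenac in HL-60, 0 to 4 in THP-1, 0 to 2 for the difference between the lines, 3 to 7 between the lines with DMSO and 1 to 6 with diclofenac. The deviations of same-numbered arrays from their group means correlated at 0 (HL-60) and -0.01 (THP-1), so no pairing by number was seen in them. With 2 arrays a group this cannot settle whether the numbers pair arrays. With a replicate block 0, 0, 0, 3 and 6 member probe sets were called in the same order, and CDKN1A with DMSO (0.055) was the one no longer called. Over all probe sets, the 1687 higher and 1715 lower calls between the lines with DMSO became 428 and 719 with median centring and 848 and 973 with array weights. The 1508 and 1382 with diclofenac became 507 and 521, and 2877 and 2876. The 29 higher and 1 lower with the drug in THP-1 became 0 and 0 with median centring or no trend, 51 and 0 on the deposited scale, 14 and 0 with array weights, and 50 and 3 with the dimmest 40% left out. The 1 and 0 in HL-60 became 18 and 10 with array weights. On the deposited scale the median of all probe sets shifted by 0.2 log2 units between the lines with DMSO, by -0.2 with diclofenac in THP-1 and by -0.13 for the difference between the lines. With median centring it shifted by 0.1 with diclofenac in HL-60 and 0.15 in THP-1. Among the 11 member probe sets above background on both arrays of some group, 162 values per comparison were recomputed, and 8 with DMSO and 16 with diclofenac lost a call. The cause was not tested. CDKN2B and probe sets near background carry no fold, and 2 arrays a group leave wide intervals.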
